A study of Mus musculus with 5 samples.

Results

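PMP22 and the epithelial membrane proteins EMP1, EMP2 and EMP3 form a small family of membrane proteins, and their genes Pmp22, Emp1, Emp2 and Emp3 were followed here through the cells of the fetal mouse lung. The family was chosen by values already seen in these libraries, its levels in capillary and AT1 cells and its difference between the genotypes. The members were then taken by gene symbol, which gave 4 of the 32285 genes in the count matrices, 1 row each. The data are single-cell RNA counts from dissociated whole lungs of E18.5 mouse embryos, 2 of them Zswim8+/- (Het) and 3 Zswim8-/- (KO), with 1 droplet library per embryo. No embryo was wild type, so every value is set against embryos that carry 1 mutant allele. The labels name no cell type that was selected, no treatment and no strain. ZSWIM8 is the adaptor of a ubiquitin ligase that destroys Argonaute proteins bound to certain target RNAs, and with them the microRNAs they carry.

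The proteins of this family cross the membrane in 4 helices and are distant relatives of the claudins of tight junctions. PMP22 is best known as a component of the myelin of peripheral nerves, although many other cells make its RNA. EMP2 is known in the lung as a protein of the flat alveolar type 1 (AT1) cells that cover the gas exchange surface, and it has been linked to integrins and caveolae. EMP1 occurs in epithelia and blood vessels, and EMP3 in leukocytes. The capillaries of the lung hold a general capillary cell, which serves as the progenitor, and the aerocyte, a large cell that lies against AT1 cells.

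After barcodes of low quality and presumed doublets were removed, 4634 and 4063 cells of the Het and 3051, 3236 and 3885 cells of the KO libraries remained. Most red cells fell under the gene minimum, but no filter on haemoglobin was applied, and 230 of the 18869 kept cells had over 50% haemoglobin UMIs. They held at most 0.965% of the UMIs of a library. The median depth was 9714 to 12678 UMIs per cell. Cells were clustered without the 4 members and given a name ending in "-like" from other marker genes. In every library 38.3% to 40.9% of the cells stayed unnamed. Zswim8 itself stood at 36.5 to 41.2 CPM (UMI counts scaled to a total of 1000000) in all 5 libraries and was not lower in the KO, so this 3′ count does not check the genotype labels. By their Y-linked and Xist counts, both Het libraries and KO 3 came from male embryos and KO 1 and KO 2 from female ones. The libraries shared 0 to 7 cell barcodes in any pair. A separate embryo is given for each library, and no label states litters.

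The AT1-like cells numbered 202 and 183 in the Het and 35, 49 and 87 in the KO libraries. The marker Ager, a receptor typical of AT1 cells, had a UMI in 100.0% of them and in 29.3% of other cells. Hopx, a transcription cofactor of AT1 cells, had one in 99.6% against 39.5%. The list marker Igfbp2 was little more common in AT1-like than in other cells, at 8.63% against 7.27%. There were 185, 116, 136, 159 and 145 general capillary-like cells in Het 1, Het 2, KO 1, KO 2 and KO 3. Gpihbp1, which anchors lipoprotein lipase on capillaries, had a UMI in 90.0% of these and in 8.55% of other cells. The list markers Lpl and Sema3c were rarer in them than in other cells, at 22.8% against 42.8% and 6.34% against 12.5%. Aerocyte-like cells, of which 78.8% had a UMI of the carbonic anhydrase gene Car4, numbered 102 and 74 in the Het but only 4, 3 and 6 in the KO libraries. A further cluster of 294 cells carried markers of both AT1 and endothelial cells. Of its cells 99.2% to 100.0% per library had UMIs of at least 3 epithelial and of at least 3 endothelial markers, and its depth was 3.96 times that of its libraries. It stayed unnamed and held 121 and 122 cells in the Het and 17, 8 and 26 in the KO libraries.

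Sequences of the gene starts are shown for Emp2 and Pmp22, because these were the members whose RNA was lower in KO capillary and AT1 cells. Emp2 lies on the minus strand of chromosome 16 at 10281749-10313968 and Pmp22 on the plus strand of chromosome 11 at 63128982-63159547 (GENCODE M21, GRCm38). Emp1 lies on chromosome 6 at 135362545-135383173 on the plus strand, and Emp3 on chromosome 7 at 45918023-45921404 on the minus strand. All are protein-coding, and no other annotated gene overlaps them. The windows run from 250 bases before to 50 bases after a start (RefSeq, GRCm38.p6), at chr16:10313919-10314218 on the minus strand for Emp2 and at chr11:63128732-63129031 on the plus strand for Pmp22. Capitals mark GGGCGG, the GC box bound by SP1, and CATTCC, bound by TEAD factors, both searched on both strands, so that CCGCCC and GGAATG count as well.
Emp2: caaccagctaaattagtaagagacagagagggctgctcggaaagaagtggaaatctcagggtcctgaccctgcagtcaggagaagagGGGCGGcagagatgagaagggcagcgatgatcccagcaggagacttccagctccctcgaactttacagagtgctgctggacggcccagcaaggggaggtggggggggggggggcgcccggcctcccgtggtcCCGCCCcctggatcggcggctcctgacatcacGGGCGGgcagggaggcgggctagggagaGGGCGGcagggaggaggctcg
Pmp22: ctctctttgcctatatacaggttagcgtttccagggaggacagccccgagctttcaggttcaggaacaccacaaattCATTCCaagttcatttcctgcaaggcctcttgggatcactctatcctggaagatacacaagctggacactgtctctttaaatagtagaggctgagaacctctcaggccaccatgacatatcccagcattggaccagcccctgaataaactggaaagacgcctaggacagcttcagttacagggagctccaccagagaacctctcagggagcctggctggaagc
The Emp2 window holds GGGCGG 4 times and has a GC content of 65.7%, whereas the Pmp22 window holds CATTCC 1 time, no GGGCGG, and has a GC content of 50.7%. GGGCGG occurs in 35.6% and CATTCC in 14.7% of the 32817 windows of this length. This holds for the first Pmp22 start alone. Of the windows at its 3 further starts downstream, which are not printed, 2 hold GGGCGG 3 times each, and their GC contents are 60.0%, 66.3% and 72.3%.

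MicroRNAs degraded through ZSWIM8 include miR-7a and miR-29b, so the 3′ untranslated regions (UTRs) were searched for the complement of bases 2 to 8 of 5 such microRNAs. The mature sequences (RefSeq) are given with the seed in capitals, followed by the 30-base sites (GENCODE M21) with the match in capitals.
miR-7a-5p: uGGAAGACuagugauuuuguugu
miR-29b-3p: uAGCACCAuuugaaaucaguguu
Emp1 site of miR-7a-5p: tcacacactgagGTCTTCCacatccatatt
Emp2 site of miR-7a-5p: cttggaagatctGTCTTCCattcattcatc
Emp2 site of miR-29b-3p: tcagctctcaatTGGTGCTtatcactagtt
Pmp22 site of miR-29b-3p: caatctgtgaaaTGGTGCTatagatttacc
Emp2 thus matched both seeds, Emp1 and Pmp22 1 each, and Emp3, whose UTR has 43 bases, none. No member matched the seeds of miR-322-5p, miR-503-5p or miR-335-3p. Of 20999 UTRs, 11.9% matched miR-7a-5p and 13.1% miR-29b-3p, so that such letters are common. MicroRNAs themselves were not measured.

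Levels are given as CPM, the UMIs of the gene scaled to all UMIs of the summed cells of a class in a library. They describe where each RNA was found and were not tested, since the genes were proposed with these levels in view.

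Emp2 was an RNA of the alveolar surface. In AT1-like cells it stood at 3447 and 3556 CPM in the Het and at 2528, 2159 and 2587 CPM in the KO libraries, and 99.5% to 100.0% of these cells had a UMI. Aerocyte-like cells of the Het libraries followed at 874 and 771 CPM, next to AT2-like cells, the surfactant makers, at 710 and 923 CPM. These ranges overlapped, so the order of the 2 classes is not resolved. The AT2-like class joined 2 unlike clusters. Emp2 stood at 1362 and 1353 Het CPM in the deeper cluster. In the other, which had more AT2 markers among its top genes, it stood at 260 and 281 CPM. Of the Het UMIs of Emp2 in the class, 41.6% and 59.5% lay in cells with at least 3 markers of another lineage. Mesothelial-like cells of the lung's outer lining had 241 ± 2.50 CPM (SD, n = 2 Het libraries) and myofibroblast-like cells 194 ± 13.1 CPM. Club-like airway cells, at 177 ± 12.4 CPM, could not be told from the latter. General capillary-like cells had only 42.9 and 35.0 CPM in the Het libraries, within the range of neutrophil-like cells at 52.0 and 21.7 CPM. B lineage-like cells, at 42.7 and 25.2 CPM, lay in the same range. Macrophage-like cells had 18.6 and 14.1 CPM in the Het libraries and monocyte-like cells 17.6 and 11.3 CPM.

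Pmp22 had its highest level in aerocyte-like cells, with 1039 and 1139 CPM in the Het libraries. AT1-like cells came next at 387 ± 46.0 CPM (SD, n = 2 Het libraries). Adventitial fibroblast-like cells, which surround vessels and airways, had 386 ± 0.267 CPM, and the Het libraries of alveolar fibroblast-like cells 372 and 393 CPM, so these 3 classes did not differ beyond their spread. Myofibroblast-like, mesothelial-like and pericyte-like cells had 324 ± 45.5, 317 ± 104 and 282 ± 23.4 CPM. Macrophage-like cells stood at 109 and 176 CPM and general capillary-like cells at 123 and 111 CPM. Monocyte-like cells were near 0, at 4.89 and 5.09 CPM. No Schwann-like class was found, so the cell type for which PMP22 is best known is not described.

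Emp1 was highest in the endothelial classes of blood vessels. In the Het libraries it stood at 611 ± 29.7 CPM in vein-like, 604 ± 14.7 CPM in aerocyte-like, 497 ± 2.77 CPM in artery-like and 446 ± 14.9 CPM in general capillary-like cells. Vein-like and aerocyte-like cells did not differ beyond their spread, and the vein-like sums held 23 and 27 Het cells. Cells with at least 3 markers of another lineage held 49.4% and 70.7% of the Het Emp1 UMIs in vein-like cells. In artery-like cells they held 51.9% and 51.4%, in aerocyte-like cells 16.7% and 8.43%, and in general capillary-like cells 11.0% and 11.7%. Alveolar fibroblast-like cells followed at 342 ± 22.0 CPM. Lymphatic-like endothelial cells, 9 and 6 in the Het libraries, had 312 ± 9.42 CPM, and club-like cells 261 ± 24.2 CPM. AT1-like cells had 135 ± 10.6 CPM, and monocyte-like cells 5.87 and 8.73 CPM.

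Emp3 followed another pattern, with leukocytes and mesenchyme high and epithelium near 0. Monocyte-like cells had 610 ± 17.6 CPM in the Het libraries and mesothelial-like cells 478 ± 6.49 CPM. T, NK and innate lymphoid-like cells had 425 ± 2.91 CPM. Pericyte-like and adventitial fibroblast-like cells, at 376 ± 23.5 and 363 ± 32.8 CPM, overlapped each other and dendritic-like cells at 377 ± 68.2 CPM. In AT1-like cells the Het libraries had 8.21 and 7.77 CPM, from 16 UMIs each, and AT2-like cells 8.93 and 8.25 CPM. AT1-like and AT2-like cells were thus high in Emp2 and low in Emp3, while mesothelial-like cells held both, as the plot of levels by class shows. In the mesothelial-like class, cells with at least 3 markers of another lineage held 62.9% and 71.8% of the Het UMIs of Emp2. They held 66.5% and 71.9% of those of Emp3.

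**Figure D1:**
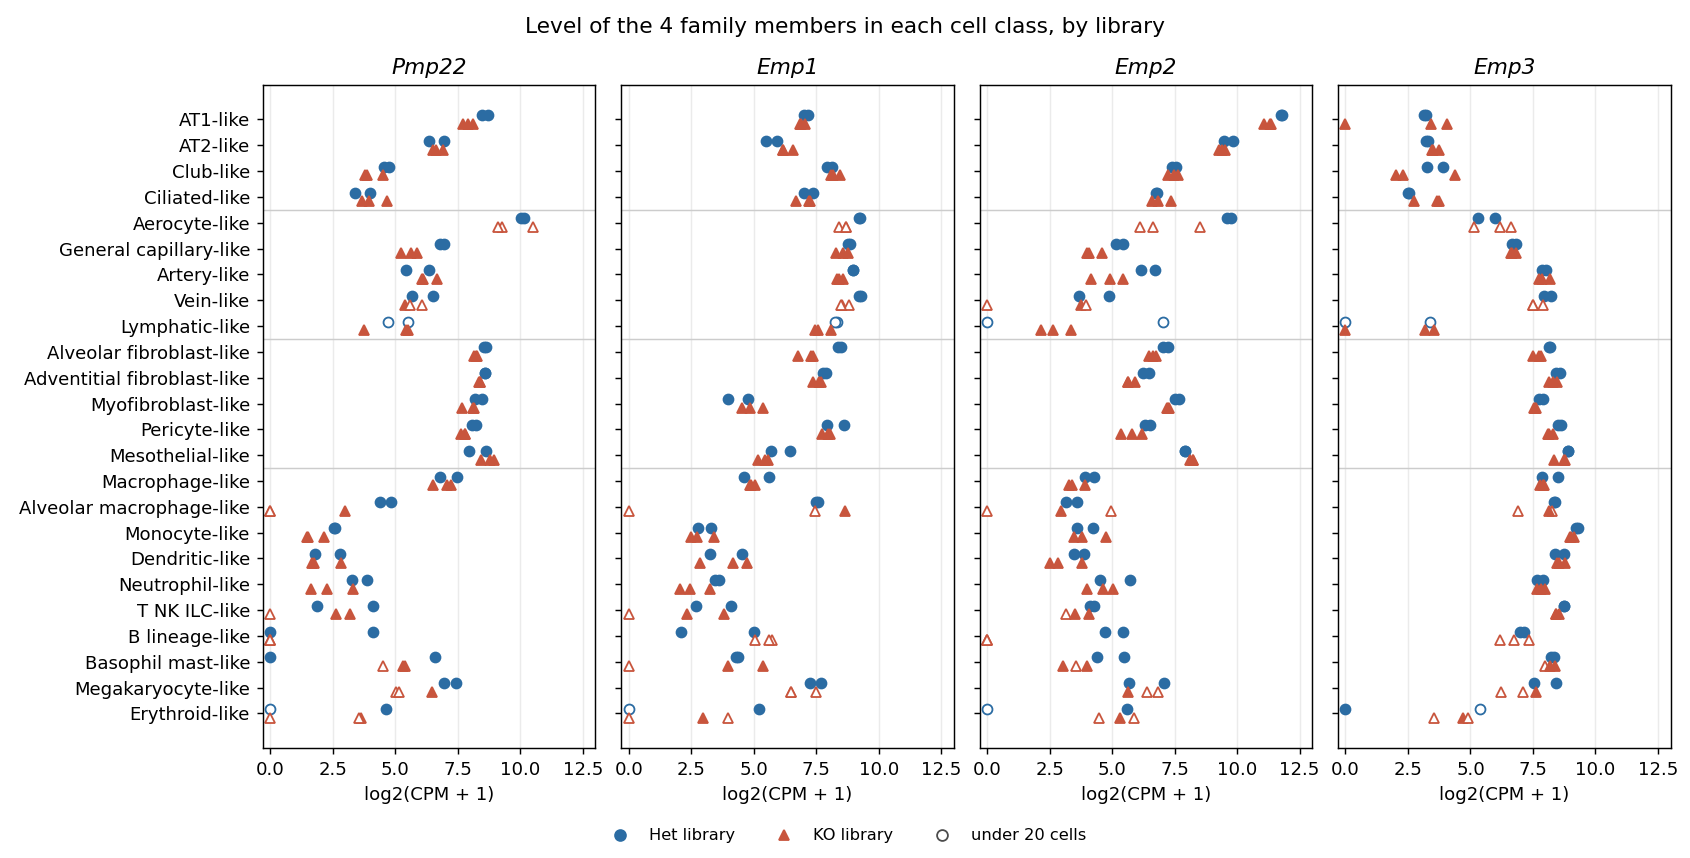
Level of each member in the summed cells of 24 named classes, 1 point per library, on a log2(CPM + 1) axis. Circles are the 2 Het and triangles the 3 KO libraries, and open symbols are sums of fewer than 20 cells. Emp2 is farthest to the right in AT1-like cells, Pmp22 in aerocyte-like cells, Emp1 in vein-like and aerocyte-like cells and Emp3 in monocyte-like cells.

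Over the 15 classes that had 20 or more cells in each library, the profiles of the members were compared as the Pearson correlation of log2(CPM + 1), a description over classes that share libraries and free RNA. Pmp22 and Emp2 correlated at 0.53, Pmp22 and Emp1 at 0.50, and Emp2 and Emp3 at -0.67. Among 12618 genes the profile most like Emp2 was that of Usp13 at 0.97, a deubiquitinase gene, then Ddc at 0.94 and BC067074 at 0.93. Atp8b1, a phospholipid flippase gene, was most like Emp1 at 0.90, with Gfod2 and Unc50 both at 0.90. AW549877 at 0.93, Ankrd24 and Zfr, both at 0.91, were most like Pmp22. Chn2 and Asap1, both at 0.95, and Dnajc14 at 0.91 were most like Emp3.

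The share of cells with a UMI has to be read against RNA that is free in the droplets. Red cell barcodes (under 500 genes, most UMIs from haemoglobin), which should not make Emp2, had a UMI of it in 9.10% and 7.01% of barcodes in the Het and in 6.97%, 5.24% and 6.70% in the KO libraries, at median depths of 2328 to 2622 UMIs. Macrophage-like cells, at median depths of 11204 to 12651 UMIs, had one in 14.4% and 15.5% of Het and in 9.35%, 11.1% and 14.5% of KO cells. General capillary-like cells, at median depths of 6776 to 9358 UMIs, had one in 22.7% (95% exact binomial interval 16.9 to 29.4) and 20.7% (13.7 to 29.2) of Het cells. In the KO the shares were 14.0% (8.63 to 21.0), 13.8% (8.88 to 20.2) and 11.0% (6.44 to 17.3). The KO shares of Emp2 in general capillary-like cells lay within those of macrophage-like cells, which were deeper. As CPM, the KO libraries had 23.1, 14.9 and 15.8 in general capillary-like and 8.69, 9.55 and 14.1 in macrophage-like cells. Scaled to their UMIs outside haemoglobin, red cell barcodes had 203 and 200 CPM of Emp2 in the Het and 140, 121 and 142 CPM in the KO libraries. For Pmp22 they had 64.2 and 57.9 CPM in the Het and 35.0, 30.7 and 46.0 CPM in the KO libraries. How much of the KO capillary level was free RNA was not tested. Intervals cover counting error only.

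The KO and Het libraries were compared in summed UMIs with edgeR's quasi-likelihood test over all genes, with a call at a Benjamini-Hochberg adjusted p under 0.05. The 4 members were proposed with this contrast in view, so their fold changes (log2 of KO over Het ± SE) and calls describe these libraries, and nothing is read from the number called. Nor is anything read from groups that lie apart, because the share of all genes that do so is not given.

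Over all kept cells, 738 of 17718 genes were called, 4.17%, and 1 of the 4 members, Emp2. It stood at 362 and 373 CPM in the Het and at 189, 198 and 223 CPM in the KO libraries, a log2 change of -0.88 ± 0.07. The groups did not overlap. Emp1, at 131 and 126 against 114, 92.2 and 95.8 CPM, had -0.38 ± 0.11. Pmp22 had 118 and 135 CPM in the Het and 120, 83.0 and 104 CPM in the KO libraries, which overlapped, with -0.33 ± 0.16. Emp3 had 208 and 221 against 194, 206 and 194 CPM, with -0.14 ± 0.06. Without either Het library in turn, or with the embryo's sex as a covariate, no member was called.

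In whole-lung sums, fewer cells of a type and less RNA per cell cannot be told apart, and the cells that held Emp2 differed between the groups. AT1-like cells made up 4.36% and 4.50% of Het and 1.15%, 1.51% and 2.24% of KO cells. They held 29.6% and 31.2% of all Emp2 UMIs in the Het, but 8.46%, 17.7% and 18.5% in the KO libraries. At a finer clustering the AT1-like class took in further clusters, so these shares depend on the clustering. The unnamed cluster with AT1 and endothelial markers held 36.0% and 34.4% of the Emp2 UMIs in the Het and 12.1%, 3.02% and 10.9% in the KO libraries. AT2-like cells held 19.2% and 20.5% in the Het and 49.6%, 59.4% and 53.1% in the KO libraries. Without the AT1-like and aerocyte-like cells, the log2 change of Emp2 over the other cells was -0.59 ± 0.06. The unnamed cluster with AT1 and endothelial markers stayed in those sums, and no fit without it was run. The AT1 markers moved with it, since 7 of 12 fell in the whole-library sums and none rose. Their part in the result was not tested.

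**Figure D2:**
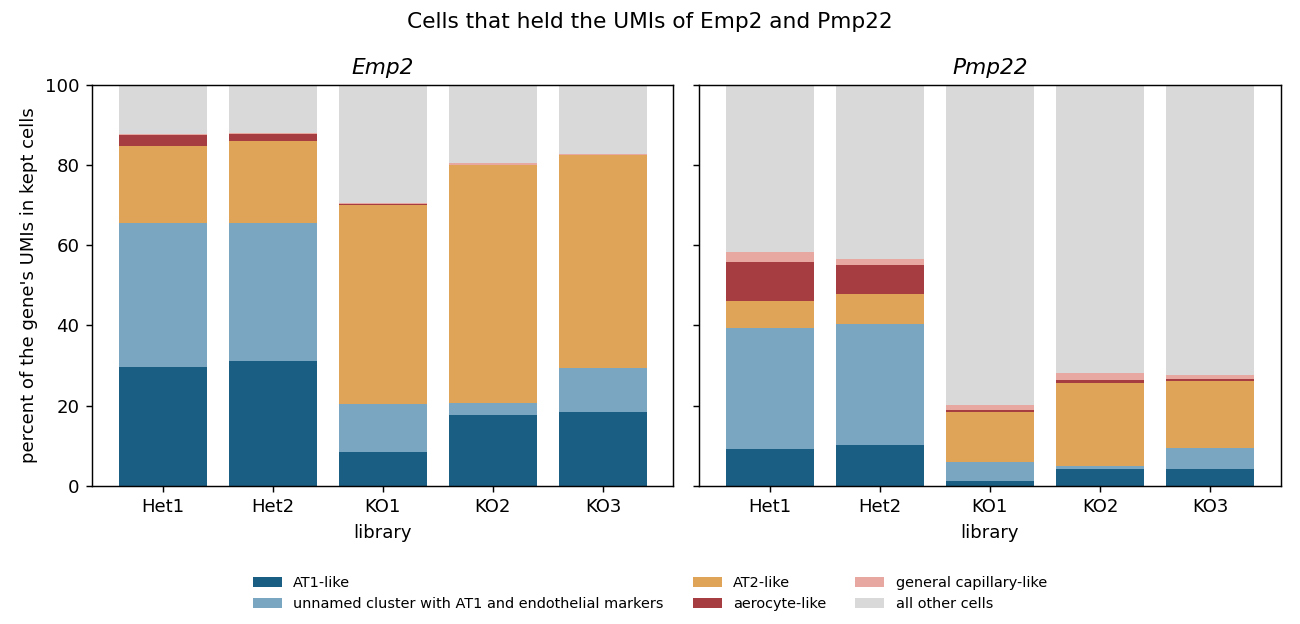
Share of the UMIs of Emp2 (left) and Pmp22 (right) held by 5 groups of cells and by all other cells, in percent of the gene's UMIs in each of the 5 libraries. For Emp2 the AT2-like share is 19.2% and 20.5% in the Het and 49.6% to 59.4% in the KO libraries, and that of the unnamed cluster with AT1 and endothelial markers is 36.0% and 34.4% against at most 12.1%.

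In AT1-like cells, 46 of 7852 genes were called, 0.586%, and none of the 4 members. edgeR gave 2 of them an unadjusted p under 0.05, and DESeq2 called 2. Emp2, at 3447 and 3556 against 2528, 2159 and 2587 CPM, had a log2 change of -0.52 ± 0.14. All 3 KO libraries lay below both Het libraries. Pmp22, at 354 and 419 CPM against 242, 210 and 278 CPM, had -0.66 ± 0.15, and its groups did not overlap. Emp1 overlapped between the groups, with 128 and 143 against 133, 115 and 116 CPM and a change of -0.19 ± 0.15. Emp3 rested on 0 to 16 UMIs per library and is given no fold. The KO sums held 35 to 87 cells, and in KO 2 the markers of AT2 cells summed to 10289 CPM against 2149 to 2649 CPM in the other 4 libraries, with Emp2 lowest there. AT1 markers moved with Emp2 in these sums, since 2 of 12 fell, none rose and 8 had an unadjusted p under 0.05, with a median log2 change of -0.43. They summed to 14599 and 16144 CPM in the Het and to 11881, 9385 and 12268 CPM in the KO libraries, and their part in the result was not tested. With cells left out that had UMIs of 3 or more markers from a second lineage, the change of Emp2 was -0.41 ± 0.13. At a finer clustering it was -0.97 ± 0.09, but the class there held a different set of cells. Beside a cluster of 179 and 163 Het and 18, 28 and 62 KO cells it took in 2 more. A shallow cluster, at 0.138 times the depth of its libraries, added 142 and 49 Het and 100, 58 and 76 KO cells. The last added 31 and 41 Het and 61, 64 and 72 KO cells. All 12 AT1 markers were raised in this last cluster, with Ager, Hopx and Akap5 among its top genes. The classes its cells held in the main clustering were not traced.

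In general capillary-like cells, 197 of 9456 genes were called, 2.08%, and 2 of the 4 members, Pmp22 and Emp2. Pmp22 stood at 123 and 111 CPM in the Het and at 57.4, 37.0 and 48.1 CPM in the KO libraries. Every KO library was below both Het libraries, with a log2 change of -1.32 ± 0.17. A UMI of Pmp22 was found in 45.4% and 43.1% of the Het and in 27.2%, 23.9% and 33.8% of the KO cells. Emp2 went from 42.9 and 35.0 CPM to 23.1, 14.9 and 15.8 CPM, a change of -1.16 ± 0.23. This rested on 65 and 37 UMIs in the Het and 27, 29 and 25 in the KO libraries. Both RNAs were also lower in the red cell barcodes of every KO library. The part of free RNA in these differences was not tested. Emp1 had 457 and 436 against 432, 312 and 380 CPM, with -0.25 ± 0.13. Emp3 had 112 and 100.2 CPM against 99.3, 98.1 and 112 CPM, overlapping, with -0.03 ± 0.14.

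The size of these capillary differences moved with the border drawn around the class. With a coarser clustering, in which aerocytes joined the class (317 and 212 Het cells), Emp2 changed by -3.63 ± 0.16 and Pmp22 by -2.79 ± 0.12. With a finer clustering, which left 85 and 54 Het cells, the changes were -0.79 ± 0.34 and -0.59 ± 0.22 and no member was called. Without Het 1 no member was called, and without Het 2, KO 2 or KO 3 in turn 1 was. Markers of the class itself moved in the same sums. Of 8 general capillary markers, 3 fell and none rose, with a median of -0.30 and 6 unadjusted p under 0.05 (edgeR). Markers of neighbouring cells moved too, since 2 of 6 tested aerocyte markers fell and none rose. Among them were Car4 at -2.34 ± 0.43 and Tbx2, a transcription factor, at -1.62 ± 0.24. The summed AT1 markers were at 366 and 299.7 CPM in the Het and at 217, 130 and 182 CPM in the KO libraries. Of the Emp2 UMIs of the Het sums, 26.2% and 40.5% lay in cells with at least 3 markers of another lineage, and without these cells its change was -0.93 ± 0.29. Their part in the result was not tested.

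**Figure D3:**
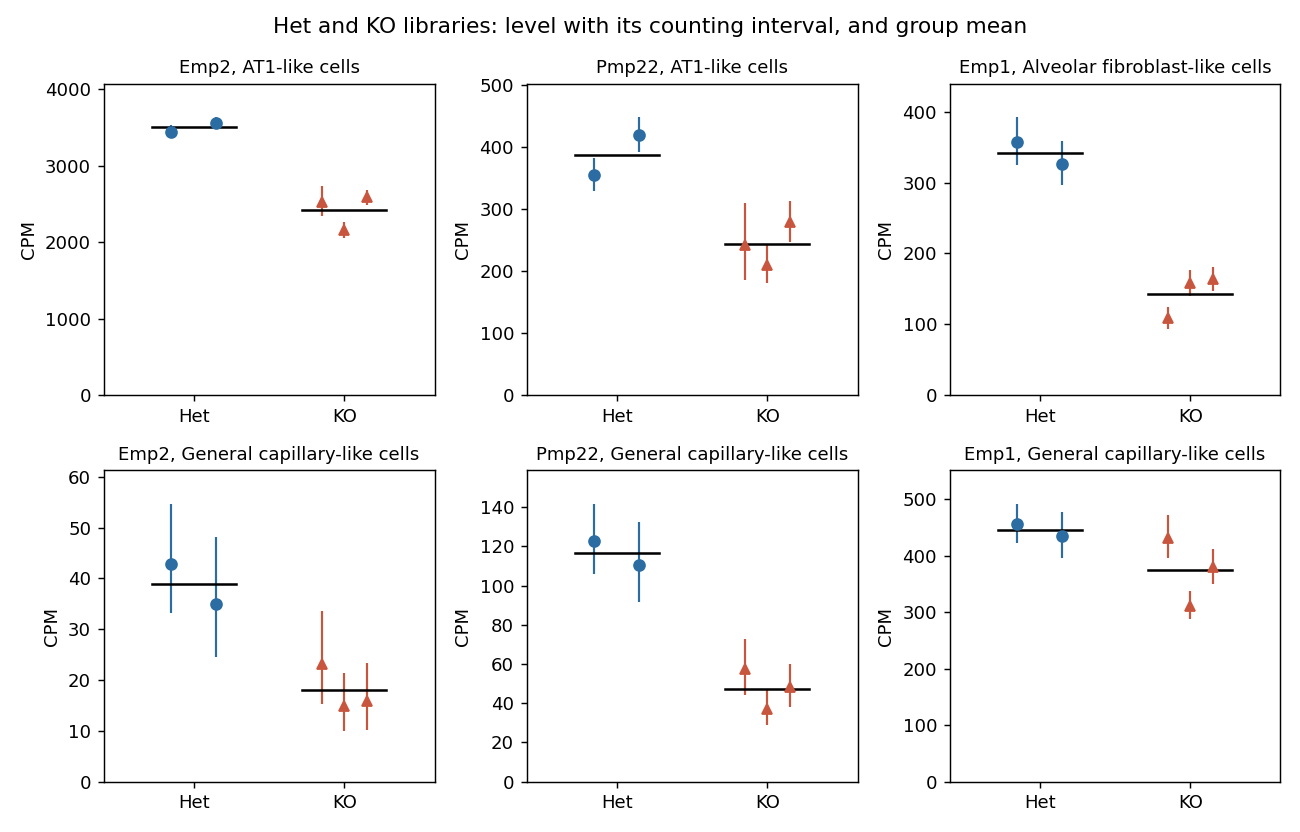
CPM of Emp2, Pmp22 and Emp1 in AT1-like, alveolar fibroblast-like and general capillary-like sums for 2 Het (circles) and 3 KO (triangles) libraries. Vertical lines are 95% Poisson counting intervals of the library and horizontal lines the group means. Emp2 in AT1-like cells lies at 3447 and 3556 CPM in the Het and at 2159 to 2587 CPM in the KO libraries.

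In the sum of all endothelial cells, 528 of 11921 genes were called, 4.43%, and 3 of the 4 members. Emp2 stood at 178 and 171 CPM in the Het and at 26.2, 14.1 and 19.1 CPM in the KO libraries, a log2 change of -3.14 ± 0.19. Pmp22 had 257 and 276 CPM against 67.7, 57.1 and 57.2 CPM, with -2.12 ± 0.10. Emp1 had 483 and 501 CPM against 354, 312 and 317 CPM, with -0.57 ± 0.09. Emp3 had 141 and 144 against 118, 140 and 121 CPM, with -0.16 ± 0.11. The groups lay apart for all 4 members. The share of all genes that did so is not given, so nothing is read from it.

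The endothelial sums of the groups held different cells. Aerocyte-like cells were 21.3% and 22.2% of the Het and 1.05%, 0.929% and 1.76% of the KO endothelial cells. They held 76.2% and 64.0% of the endothelial Emp2 UMIs in the Het, and 62.8% and 58.6% of those of Pmp22. In the KO they held 1.90%, 3.17% and 14.4% of the Emp2 and 6.64%, 11.8% and 7.37% of the Pmp22 UMIs. With aerocyte-like cells left out, an alternative added after the data were seen, Emp2 changed by -1.69 ± 0.25 and Pmp22 by -1.12 ± 0.12. All 3 members were again called. Of the 8 aerocyte markers, 5 fell in the full endothelial sums and none rose, with Car4 at -4.55 ± 0.29. Of the 12 AT1 markers, 4 fell in the same sums and 1 rose, with a median of -1.26, and 10 had an unadjusted p under 0.05. The one that rose was Igfbp2, which binds insulin-like growth factors, named here after its values were seen. The AT1 list summed to 356 and 394 CPM in the Het and to 172, 134 and 161 CPM in the KO libraries, and its part in the result was not tested.

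The aerocyte-like cells of the KO are too few for a comparison of level. KO 1 had 2 Emp2 UMIs in 4 cells, KO 2 had 2 in 3 cells and KO 3 had 15 in 6 cells. As CPM these were 68.4 (95% Poisson interval 8.29 to 247), 97.4 (11.8 to 352) and 361 (202 to 595). These intervals cover counting error only. In KO 3, 73.3% of these UMIs came from the 1 cell with at least 3 markers of another lineage. Pmp22 in the same cells gave 616, 1461 and 553 CPM from 18, 30 and 23 UMIs, beside the 1039 and 1139 CPM of the Het libraries.

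In the unnamed cluster with AT1 and endothelial markers, Emp2 stood at 1205 and 1134 CPM in the Het and at 1014, 781 and 778 CPM in the KO libraries. Pmp22 had 329 and 359 CPM against 246, 99.5 and 175 CPM. KO libraries were lower for both, from 17, 8 and 26 cells. The endothelial markers of this cluster also summed to less, 2969 and 2832 CPM in the Het and 1376, 1875 and 1680 CPM in the KO libraries.

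Among mesenchymal classes, Emp1 differed most in alveolar fibroblast-like cells, which lie beneath the alveolar epithelium. In these cells 518 of 9995 genes were called, 5.18%, and 2 of the 4 members, Emp1 and Emp3. Emp1 fell from 358 and 327 CPM in the Het to 108, 158 and 164 CPM in the KO libraries, a log2 change of -1.25 ± 0.14. A UMI of Emp1 was found in 77.1% and 75.7% of Het and in 43.9%, 57.3% and 60.4% of KO cells, at similar median depths of 8660 to 10841 UMIs. Emp3 went from 287 and 281 CPM to 178, 224 and 212 CPM, with -0.47 ± 0.12. The class was made of 2 clusters, and the Het cells lay mostly in 1 of them (82 and 83 against 36 and 24 cells), while the KO cells were spread over both (88, 74 and 79 against 117, 76 and 108). In the first cluster alone Emp1 had 440 and 383 CPM in the Het and 174, 230 and 283 CPM in the KO libraries, and in the second 132 and 94.9 against 66.7, 83.0 and 87.7 CPM. The groups lay apart in both clusters, with smaller gaps in the second. Emp3 lay apart in the first, at 328 and 304 against 225, 261 and 245 CPM, and overlapped in the second. Pmp22 and Emp2, at -0.36 ± 0.12 and -0.52 ± 0.14, were also lower in every KO library and were not called. In the same sums 3 of 9 tested AT1 markers fell and none rose, and the AT1 list summed to 751 and 863 CPM in the Het and 163, 224 and 212 CPM in the KO libraries. With DESeq2, with sex as a covariate, and without either Het library or KO 3, 1 member was called instead of 2, and without KO 1 all 4 were.

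Other classes showed other directions. Of the values in this paragraph, edgeR called only that of Emp2 in AT2-like cells. In mesothelial-like cells it called 0 of 11109 genes. Emp2 was higher in the KO in mesothelial-like cells, at 274, 301 and 298 CPM against 243 and 239 CPM, with 0.29 ± 0.13. Emp1 was higher in the KO in AT2-like cells, at 94.2, 71.7 and 71.2 CPM against 43.7 and 59.3 CPM, with 0.42 ± 0.18. Cells with 3 or more markers of a second lineage held 49.5% to 73.3% of its UMIs per library. In AT2-like cells 2 clusters made up the class, and most cells came from 1 of them in the Het (219 and 129 cells) and from the other in the KO libraries (130, 157 and 187 cells). Within the cluster that held most KO cells Emp1 overlapped, with 83.5 and 92.6 CPM in the Het and 102, 76.4 and 79.2 CPM in the KO libraries, and so it did in the other, with 16.2 and 9.58 against 19.0, 7.58 and 17.8 CPM. The difference of the whole class was thus not seen within its clusters. Emp2 overlapped in AT2-like cells, with 710 and 923 CPM against 733, 621 and 675 CPM. edgeR called it lower there, at -0.46 ± 0.13, among 1678 of 12443 genes. In the same sums 9 of 10 AT2 markers fell and none rose, with a median of -1.21. Emp2 lay apart in the cluster that held most KO cells, at 1362 and 1353 against 781, 647 and 737 CPM. In the other cluster it overlapped, at 260 and 281 against 247, 271 and 255 CPM. Without cells that had 3 or more markers of a second lineage, its change in the class was 0.07 ± 0.12. In artery-like cells Emp2 was lower, at 70.2 and 105 CPM against 42.0, 16.7 and 28.8 CPM, with -1.53 ± 0.31. Of its UMIs, 71.7% and 94.0% in the Het and 20% to 63.6% in the KO libraries lay in cells with 3 or more markers of a second lineage, and without these cells the change was 0.09 ± 0.43. AT1 markers in the full sums were at 302 and 412 CPM in the Het and at 157, 141 and 131 CPM in the KO libraries, where 1 of 8 tested fell and none rose. In the same cells Pmp22 overlapped between the groups, at 42.1 and 79.6 against 102, 65.5 and 67.8 CPM. Emp3 in monocyte-like cells, its highest class, had 622 and 598 CPM against 509, 570 and 520 CPM, with -0.24 ± 0.11. Of its 2 clusters, 1 held most Het cells (220 and 211 of 349 and 324) and the other most cells of KO 2 and KO 3 (264 and 211). In the first Emp3 had 677 and 641 CPM against 514, 591 and 567 CPM, and in the second 530 and 517 CPM overlapped with 486, 560 and 492 CPM.

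The relatives and reported partners of these proteins were tested in the same fits. The first list held 17 genes of the claudin-like group, of which 1 was not matched by its symbol. In the whole-library sums 14 could be tested: 2 fell, 1 rose and 11 were not called, with a median log2 change of -0.20 against 0.01 over all genes. Cldn5, the main claudin of endothelial junctions, fell from 200 ± 7.24 CPM (SD, n = 2) to 115 ± 10.0 CPM (n = 3), a log2 change of -0.83 ± 0.09 (edgeR adjusted p = 0.0193). Perp, a p53 target of cell junctions, fell from 59.7 ± 2.34 to 41.8 ± 4.03 CPM, a change of -0.54 ± 0.08 (adjusted p = 0.0271). Cldn6, a claudin of fetal epithelium, rose from 3.40 ± 0.218 to 9.44 ± 2.14 CPM, a log2 change of 1.45 ± 0.20 (adjusted p = 0.0254). It stayed below the 10 CPM at which list genes were to be named, and is named after its values were seen. No gene of the list was called without either Het library, without KO 3 or with sex as a covariate.

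In general capillary-like cells 5 genes of this list could be tested, 2 fell and none rose, with a median of -0.60 against 0.01 over all genes. Cldn5 fell from 1520 ± 195 to 992 ± 62.4 CPM, a change of -0.60 ± 0.10 (adjusted p = 0.00603). Tmem47, a claudin-like protein of cell junctions, fell from 70.6 ± 7.56 to 40.6 ± 10.1 CPM, a change of -0.83 ± 0.19 (adjusted p = 0.0384). With a finer clustering, with sex as a covariate or without either Het library neither was called. In the endothelial sums the same 2 genes were called, Tmem47 at -1.21 ± 0.13 and Cldn5 at -0.76 ± 0.08. With aerocyte-like cells left out, neither was. In AT1-like cells none of 8 tested genes was called by edgeR or DESeq2, and edgeR gave 3 an unadjusted p under 0.05.

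The second list held 15 genes for reported partners of EMP2 and PMP22, among them integrins, caveolins and focal adhesion kinase. All 15 could be tested in the whole-library sums, with a median of -0.03, and 1 fell while none rose. This was Cav2, a caveolin, which went from 80.1 ± 3.11 to 59.6 ± 4.87 CPM, a change of -0.45 ± 0.08 (adjusted p = 0.0371). Cav1, its partner in caveolae, had 341 ± 9.39 and 339 ± 62.2 CPM and was not called. The whole-library call of Cav2 was lost with sex as a covariate, with the replicate number as a block and without KO 3, among other settings. In the endothelial sums Cav2 again was the 1 gene called, at -0.52 ± 0.12 (adjusted p = 0.0497). That call was lost with library size alone, with doublets kept, with sex as a covariate and with the replicate number as a block. It was also lost without KO 1 or KO 3, among other settings. Without the AT1-like and aerocyte-like cells no gene of this list was called in either sum. In general capillary-like cells none of 12 was called by edgeR or DESeq2, with a median of -0.05 and 1 unadjusted p under 0.05. In AT1-like cells edgeR called none of 13, with a median of -0.24 and 4 unadjusted p under 0.05, and DESeq2 called 1.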

How the data were processed

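Lungs of 2 Zswim8+/- and 3 Zswim8-/- embryos were run on the Chromium 3′ v3.1 chemistry, per the labels' protocols. The deposited values are raw UMI counts per gene and barcode, made with Cell Ranger 4.0.0 and mm10, per the file headers and the submitters' processing notes. The count matrices hold 8722 to 13539 barcodes and 56608584 to 93708304 UMIs per library.

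A barcode was kept if it had 500 genes or more and mitochondrial UMIs of 15% or less, with no filter on haemoglobin. Presumed doublets, 78 to 186 per library, were removed by their likeness to simulated ones, at a rate of 0.8% per 1000 cells. Cells were clustered on 2000 variable genes and 30 components (leidenalg 0.10.2, resolution 2) without the 4 members, Zswim8, haemoglobin, mitochondrial and sex-linked genes. Clusters were named from at least 3 markers, by rules set after the clusters were seen, so the names are rebuilt and not the authors'.

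UMIs were summed per library and class, where each library gave 20 cells or more. Sums were tested with edgeR 4.0.16 (R 4.3.3, TMM, filterByExpr, two-sided quasi-likelihood test, adjusted p under 0.05), with no block, and with DESeq2 1.42.0 as an alternative. In simulated counts with 200 genes changed by 1 on the log2 scale, edgeR recovered 71.5% of them in the whole-library sums of 17718 genes, with 8 false calls, and 57% in the AT1 sums of 7852 genes, with 7 false calls. The members and lists were chosen with earlier results of these data known. All 4 members were named in every sum, list genes where called at 10 CPM or more in the whole-library, general capillary or AT1 sums, and the 3 genes most like each member. P-values measure the spread between these embryos.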

Additional observations from a re-analysis of the deposited data

Results flagged for a closer look

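Some members were higher in every KO library of 1 class and lower in every KO library of another. The difference between the classes was not tested in any of these cases, and 2 against 3 libraries stand behind each. The share of all genes whose groups lay apart in the same sums is not given, so nothing is read from the separation alone. Of the values below, edgeR called only those of Emp1 and Emp3 in alveolar fibroblast-like cells. For Emp1 the log2 change of KO over Het was 0.42 in AT2-like and -1.25 in alveolar fibroblast-like cells. Het and KO cells filled the 2 clusters of each class unequally. Within either AT2-like cluster the groups overlapped, and within either alveolar fibroblast-like cluster they lay apart. The AT2-like value was 0.06 with a stricter barcode filter and 0.83 without cells of mixed markers. For Emp2 it was 0.29 in mesothelial-like and -1.53 in artery-like cells, where the KO libraries had 16.7 to 42.0 CPM. In artery-like cells 71.7% and 94.0% of the Het UMIs of Emp2 lay in cells of mixed markers, AT1 markers were lower in every KO library, and without the mixed cells the change was 0.09. In mesothelial-like cells 51.4% to 78.3% of the UMIs lay in such cells, and without them the change was 0.24. For Emp3 it was 0.13 in AT2-like and 0.94 in ciliated-like cells, and -0.47 in alveolar fibroblast-like cells. The AT2-like value of Emp3 changed sign with sex as a covariate (-0.009), with doublets kept (-0.64) and without mixed cells (-0.18). The level of Emp3 was low in both epithelial classes, with 4.89 and 4.73 CPM in the ciliated-like cells of the Het libraries.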

How the results depend on the processing

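With 2 Het libraries, sex partly tied to genotype and 35 to 87 AT1-like cells per KO library, calls moved with the processing, and the cause was not tested. The log2 change of Emp2 kept its sign under every alternative run in the whole library (-1.16 to -0.59) and in the endothelial (-3.36 to -1.69), general capillary (-3.63 to -0.79) and AT1 sums (-0.97 to -0.41), and that of Pmp22 likewise (-0.47 to -0.13, -2.33 to -1.12, -2.79 to -0.59 and -0.92 to -0.49). Of 1121 values of a member's change under an alternative, 90 moved and 2 reversed. A value moved if it shifted by at least the SD between libraries of a group. It counted as reversed only if the member was called in the main fit. Sign changes of members not called, such as Emp2 in artery-like cells, are therefore not among the 2. Emp2 in the epithelial lineage went from -0.65 to 0.0902 without AT1-like and aerocyte-like cells (a choice made after seeing the data), and in AT2-like cells from -0.46 to 0.0708 without cells of mixed markers. Of 172 levels, 52 moved.

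The genes called in the whole library, 738, became 2098 with DESeq2 and 0 with sex as a covariate. With 1 library left out they ran from 0 to 1080 (2 without Het 1, 0 without Het 2, 110 without KO 3). The 528 of the endothelial sums became 1300 with no low-count filter, 104 with sex, 858 without mixed cells and 122 without aerocyte-like cells, and 75 to 881 with 1 library left out. The 197 of general capillary-like cells became 478 with no filter, 39 with sex, 492 with doublets kept, 1162 at the coarser and 8 at the finer clustering, and 20 to 503 with 1 library left out. The 46 of AT1-like cells became 253 with no filter, 2 with sex, 418 with doublets kept, 279 with a stricter barcode filter (1000 genes or more and mitochondrial UMIs of 10% or less together), 479 at the coarser and 588 at the finer clustering and 110 without mixed cells, and 5 to 99 with 1 library left out. The 518 of alveolar fibroblast-like cells became 248 with DESeq2, 323 with the stricter barcode filter, 889 with no filter and 164 with sex, and 81 to 758 with 1 library left out.

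Of the 4 members, 1 was called in the whole library, 2 with DESeq2, 0 with sex and 0 to 2 with 1 library left out. In the endothelial sums 3 were called, and 2 to 3 with 1 library left out. In general capillary-like cells 2 were called, 1 with DESeq2, with sex or without mixed cells, 0 at the finer clustering and 0 to 2 with 1 library left out. In AT1-like cells 0 were called, 2 with DESeq2, no filter, doublets kept, the stricter barcode filter or the coarser clustering, 3 at the finer clustering, 1 without mixed cells and 0 to 1 with 1 library left out. In alveolar fibroblast-like cells 2 were called, 1 with DESeq2 or sex, and 1 to 4 with 1 library left out.

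Of the claudin-like list, 3 were called in the whole library, 6 with DESeq2, 0 with sex and 0 to 4 with 1 library left out. The 2 of the endothelial sums became 0 without aerocyte-like cells. The 2 of general capillary-like cells became 1 with DESeq2, 0 with sex or the finer clustering and 0 to 2 with 1 library left out. In AT1-like cells 0 became 1 with doublets kept, the stricter barcode filter, either other clustering or no mixed cells, and 0 to 1 with 1 library left out. Of the partners, 1 was called in the whole library, 2 with DESeq2, 0 with sex or without AT1-like and aerocyte-like cells and 0 to 1 with 1 library left out. The 1 of the endothelial sums became 0 with library size alone, sex, doublets kept or no aerocyte-like cells, and 0 to 2 with 1 library left out. In general capillary-like cells 0 became 1 with no filter or doublets kept and 3 at the coarser clustering. In AT1-like cells 0 became 1 with DESeq2 or library size alone, 2 with no filter, doublets kept, the stricter barcode filter, the coarser clustering or no mixed cells, 3 at the finer clustering and 0 to 1 with 1 library left out.

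Replicate numbers 1 and 2 occur in both groups, but same-numbered libraries did not deviate together, with correlations of -0.083 and -0.031 in the whole library, 0.046 and 0.042 in general capillary-like and 0.035 and 0.059 in AT1-like cells. They share only a number. With that number as a block, the genes called became 8 in the whole library, 122 in the endothelial, 343 in the general capillary and 211 in the AT1 sums. Under the block the members called became 0 in the whole library, 2 in the endothelial and 2 in the AT1 sums, the claudin-like genes 0 in the whole library, and the partners 0 in the whole library and the endothelial, 1 in the general capillary and 3 in the AT1 sums. Other clusterings leave the whole-library sum as it is. At this depth Emp3 in AT1-like cells, with at most 16 UMIs per library, could not be compared.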
